A study of Mus musculus with 26 samples.

Results

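The genes described here are 10 that retinal progenitors and Müller glia are known to share: Glul, Slc1a3, Rlbp1, Clu, Gpr37, Vim, Dbi, Prdx6, Car2 and Dkk3. They were chosen by name, and every probe set annotated to one of them alone was used, which gave 24 probe sets for 9 of the 10 genes among 45101 probe sets and 18193 genes in all. Prdx6 had no such probe set and was not analysed here. Of the 9, 8 were detected in at least 2 cells, and Clu was detected in 1 cell. The data are 26 Affymetrix arrays, each with the amplified cDNA of 1 retinal cell from mice homozygous for a floxed Notch1 allele on a C57BL/6 background. The 13 N1-CKO cells received CAG:Cre, a Cre recombinase driven by a broadly active promoter, and CALNL-GFP, a GFP reporter that Cre switches on. The 13 WT cells came from siblings with the same floxed alleles and received CAG:GFP, so that "WT" names cells without Cre and not a wild-type allele. Plasmids were given to both groups at postnatal day 0 in the living pup, retinas were taken at postnatal day 3, and single cells were picked by their GFP signal. The labels name no animal, litter or session, so each group stands as 1 sample, no test between the groups was made, and SDs and intervals describe these cells.

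Müller glia are among the last cells to leave the progenitor pool of the retina, and they share many transcripts with progenitors. In the mature eye these transcripts serve glial tasks such as glutamate uptake and its conversion to glutamine, handling of visual cycle retinoids, and pH control. Notch1 signalling keeps progenitors undifferentiated and, later, favours the glial fate. A gene of this kind can therefore mark a dividing progenitor, an early glial cell or a cell that has just left the cycle.

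Values are MAS5 signals, a probe set summary on a linear scale, with each array scaled to the same trimmed mean of 500.0. Detection in a cell means a signal at or above the 90th percentile of the array in question. That threshold lay between 245 and 2164 in N1-CKO cells and between 396 and 2409 in WT cells. For log2 values, signals under the pooled median of 25.02 were raised to it. The 5' control probe set for 18S RNA divided the arrays into a high 18S set and a low 18S set. The high set held 5 N1-CKO and 5 WT cells and the low set 8 and 8. The Gapdh ratio, the 3' control probe set over the 5' one, which grows as cDNA gets shorter, ranged from 1.46 to 245 in N1-CKO cells and from 1.40 to 3.26 in WT cells. Notch1 itself was detected in 8 N1-CKO and 10 WT cells, and the place of its probe sets relative to the floxed part is not known here. Markers of other tissue were nearly absent: 5 of 5 endothelial, 5 of 5 lens, 5 of 6 microglial and 5 of 6 pigment epithelium genes were detected in 0 cells. The remaining genes of those lists were each seen in 1 cell, Ttr of the pigment epithelium list in 1 N1-CKO cell and C1qa of the microglial list in 1 WT cell, as was the astrocyte gene Gfap in 1 WT cell. Hba-a2, an alpha globin gene, was detected in all 13 N1-CKO and all 13 WT cells with mean log2 signals of 15.13 ± 1.18 and 15.14 ± 0.93 (SD over cells). Of the other erythroid genes measured, Hba-a1 was detected in 1 N1-CKO and 1 WT cell and Alas2, the heme synthesis gene, in 0 cells.

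Most of the shared progenitor and glial genes had lower mean signals in N1-CKO than in WT cells. Of the 8 genes detected in at least 2 cells, 7 had lower means in N1-CKO cells and 1, Glul, had a higher mean, where 51.5% of all 8280 genes so detected had lower means. Lower by at least 1 log2 unit were 5 of the 8 (Gpr37, Car2, Vim, Dbi and Slc1a3), against 22.3% of all genes. Gpr37, Car2, Vim and Dbi stayed lower by that much whichever 1 of the 26 cells was left out, whereas Slc1a3 did so for 13 of the 26. Higher by at least 1 log2 unit were 0 of the 8, against 19.1% of all genes. The median difference, N1-CKO minus WT, was -1.38 over the 8 genes and -0.04 over all genes. N1-CKO cells had 4.38 ± 1.61 of the 9 genes detected and WT cells 5.54 ± 1.61 (SD over 13 cells each), a difference smaller than the spread between cells. Detected in at least 3 fewer N1-CKO than WT cells were 4 of the 8 (Rlbp1, Gpr37, Vim and Car2), against 13.4% of all genes, and in at least 3 more 0 of the 8, against 12.2%. A difference of means combines the number of cells with a transcript and the level in those cells.

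**Figure D1:**
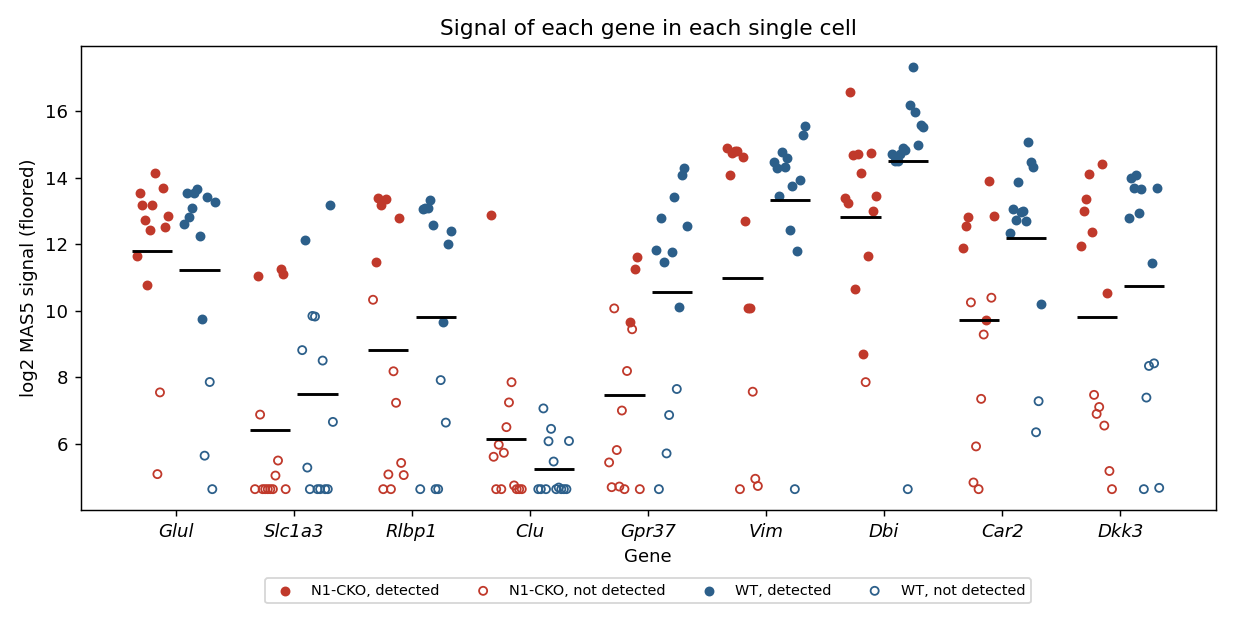
Log2 MAS5 signal (vertical axis, raised to a floor) of the 9 genes in each of 13 N1-CKO cells (red, left) and 13 WT cells (blue, right); filled points are detected, open points are not, bars are group means, and points are spread sideways for visibility. Most genes form a bright cloud and a cloud near the floor, and for Gpr37, Vim and Car2 more N1-CKO than WT cells sit in the lower one.

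Gpr37, an orphan G protein-coupled receptor of glia, showed the largest difference of the 9. Its signal ran from 4.16 to 3126 (median 129) in N1-CKO cells and from 5.59 to 20127 (median 3482) in WT cells. Only N1-CKO cells 9, 11 and 12 reached detection, against 9 WT cells, and the groups overlapped because 4 WT cells were also dim. Detection was 23.1% in N1-CKO cells (exact Clopper-Pearson 95% interval 5.04 to 53.8) and 69.2% in WT cells (38.6 to 90.9), so that the intervals overlap. The mean log2 signal was 7.48 ± 2.67 in N1-CKO cells and 10.56 ± 3.27 in WT cells, a difference of -3.08 that was close to the larger SD. N1-CKO cells 3, 8 and 10 had signals at 70.3%, 74.0% and 87.8% of their arrays' thresholds.

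Vim encodes the intermediate filament vimentin of progenitors and Müller glia. Its signal ran from 2.77 to 30376 (median 6732) in N1-CKO cells and from 22.7 to 48658 (median 19977) in WT cells. It was detected in 9 N1-CKO cells (69.2%, interval 38.6 to 90.9) and 12 WT cells (92.3%, interval 64.0 to 99.8). N1-CKO cells 6, 11, 12 and 13 lacked it, and WT cell 9 was the only WT cell without it. Mean log2 signals were 10.99 ± 4.22 and 13.33 ± 2.81, a difference of -2.35 that lies within the spread between N1-CKO cells.

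The promoters of Gpr37 and Vim, both with lower means, and of Glul, the gene with a higher mean, are shown for their E-boxes, since E-boxes (CANNTG on either strand, its own complement) are the sites at which proneural basic helix-loop-helix factors bind DNA. Sequences are the 250 bases before the RefSeq start site, 5′ to 3′ on the gene's strand, in build GRCm38.p6, with CANNTG matches in capitals. The Gpr37 window is chr6:25689981-25690230 on the minus strand, the Vim window chr2:13574061-13574310 on the plus strand and the Glul window chr1:153899679-153899928 on the plus strand.
Gpr37: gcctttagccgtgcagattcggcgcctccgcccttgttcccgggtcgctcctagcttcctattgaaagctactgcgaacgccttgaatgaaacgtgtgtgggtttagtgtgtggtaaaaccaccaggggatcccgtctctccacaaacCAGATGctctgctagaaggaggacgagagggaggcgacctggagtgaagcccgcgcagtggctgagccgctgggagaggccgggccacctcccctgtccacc
Vim: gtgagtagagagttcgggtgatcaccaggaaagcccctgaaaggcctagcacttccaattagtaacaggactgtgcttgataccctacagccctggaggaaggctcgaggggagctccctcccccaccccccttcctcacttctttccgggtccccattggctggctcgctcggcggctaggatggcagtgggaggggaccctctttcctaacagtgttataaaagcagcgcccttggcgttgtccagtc
Glul: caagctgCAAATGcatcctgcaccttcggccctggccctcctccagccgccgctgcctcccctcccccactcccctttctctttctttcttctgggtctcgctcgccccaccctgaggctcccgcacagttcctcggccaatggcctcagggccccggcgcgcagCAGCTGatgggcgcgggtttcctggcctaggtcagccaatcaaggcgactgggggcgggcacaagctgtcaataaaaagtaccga
The window of Glul held 2 matches, that of Gpr37 held 1 and that of Vim held 0. RefSeq promoters matched 6 of the 10 genes, in 7 windows, of which 6 held at least 1 CANNTG, where 66.2% of all 32851 promoter windows did. TGGGAA, the core of the motif bound by the Notch partner Rbpj, searched on both strands, occurred in 0 of the 7 windows and in 21.6% of all windows. These matches describe letters in short windows only.

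Car2, a carbonic anhydrase that hydrates carbon dioxide, ran from 8.89 to 15181 (median 1223) in N1-CKO cells and from 81.8 to 34406 (median 8000.1) in WT cells. It was detected in 6 N1-CKO cells (46.2%, interval 19.2 to 74.9) and 11 WT cells (84.6%, interval 54.6 to 98.1). WT cells 11 and 12 were the only WT cells without it. Mean log2 signals were 9.73 ± 3.16 and 12.18 ± 2.67, a difference of -2.45. This count sits near its limit, since Car2 in N1-CKO cells 9 and 12 reached 97.3% and 81.8% of the threshold, whereas N1-CKO cell 10 and WT cell 13 passed at 105.8% and 104.3%.

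Dbi encodes a small acyl-CoA-binding protein that also acts on GABA receptors. With the brightest of its 4 probe sets, it was detected in 12 N1-CKO and 12 WT cells, and with the other 3 in 9, 10 and 11 N1-CKO cells against 12 WT cells. Its signal ran from 232 to 97297 (median 10706) in N1-CKO cells and from 22.6 to 164557 (median 30470) in WT cells. Of the 12 N1-CKO cells with Dbi, 8 lay below the dimmest WT cell with Dbi, which had 23084. Mean log2 signals were 12.83 ± 2.50 and 14.50 ± 3.07, a difference of -1.66 within the spread between cells.

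Rlbp1 encodes the retinaldehyde-binding protein CRALBP of Müller glia and pigment epithelium. Its signal ran from 5.28 to 10742 (median 291) in N1-CKO cells and from 1.92 to 10321 (median 4122) in WT cells. It was detected in 5 N1-CKO and 8 WT cells, and where detected it spanned similar signals, 2847 to 10742 in N1-CKO cells and 813 to 10321 in WT cells. The difference of mean log2 signals was -0.99, and with 1 cell left out it lay between -1.42 (without WT cell 1, 7 or 8) and -0.64 (without N1-CKO cell 5 or 8). Dkk3, a secreted protein of the Dickkopf family, was detected in 7 N1-CKO and 8 WT cells. Its signal ran from 18.7 to 21771 (median 1483) in N1-CKO cells and from 9.49 to 17206 (median 7144) in WT cells, with a difference of -0.93, which lay between -1.44 (without WT cell 7) and -0.50 (without N1-CKO cell 13) with 1 cell left out. For both genes the groups overlapped over nearly their whole range.

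Glul, glutamine synthetase, which turns glutamate taken up by Müller glia into glutamine, was detected in 11 N1-CKO cells (84.6%, interval 54.6 to 98.1) and 10 WT cells (76.9%, interval 46.2 to 94.96). Its signal ran from 34.2 to 18169 (median 6835) in N1-CKO cells and from 16.9 to 13064 (median 7247) in WT cells. Mean log2 signals of 11.80 ± 2.63 and 11.24 ± 3.20 differed by 0.55, well within the spread. Without N1-CKO cell 9 that difference was 1.11, and without WT cell 12 it was 0.0029. The dimmer Glul probe set had the opposite sign, -1.83, with detection in 2 N1-CKO and 5 WT cells, so that the direction for Glul is not settled.

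Slc1a3, the glutamate transporter GLAST, was seen in few cells: 3 N1-CKO cells (2, 11 and 12) and 2 WT cells (2 and 12). Signals where detected were 2123 to 2434 in N1-CKO cells, and 4467 and 9322 in WT cells. Its median signal over all cells was 23.1 in N1-CKO and 102 in WT cells, and the difference was -1.09 although, with this probe set, more N1-CKO than WT cells reached detection. With 1 cell left out it lay between -1.49 and -0.61, the smallest in size without WT cell 12, followed by -0.70 without WT cell 2. Clu, the extracellular chaperone clusterin, was detected only in N1-CKO cell 1, with a signal of 7565, and in 0 of 13 WT cells (0%, interval 0 to 24.7), where the brightest cell had 134. All 4 Clu probe sets called that same cell and no other, and the Clu difference of 0.88 was 0.32 without it. N1-CKO cell 1 was also the only N1-CKO cell with Hes1, the repressor that Notch signalling induces.

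Probe sets of a gene gave the same sign for Vim (3 of 3 lower, -2.82 to -2.35), Dbi (4 of 4 lower, -3.04 to -1.66) and Dkk3 (2 of 2 lower, -1.43 and -0.93). All 4 Clu probe sets were higher, by 0.25 to 0.88. The 3 Vim probe sets were detected in the same 12 WT cells and in 6 to 9 N1-CKO cells. The 4 Dbi probe sets were detected in the same 12 WT cells and in 9 to 12 N1-CKO cells. The probe sets used for Vim and Dbi have names ending in _x_at, which marks probes that can match other transcripts. The Dbi probe set without that ending gave -3.04 and 9 N1-CKO cells, and the Vim probe set whose name ends in a plain _at gave -2.82 and 6 N1-CKO cells. The 6 Slc1a3 probe sets ranged from -1.47 to 0.74, and 2 of them were detected in 0 cells. The one at -1.47 was detected in 1 N1-CKO cell (10) and 3 WT cells (5, 10 and 12). Of these, only WT cell 12 was also called by the probe set used.

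**Figure D2:**
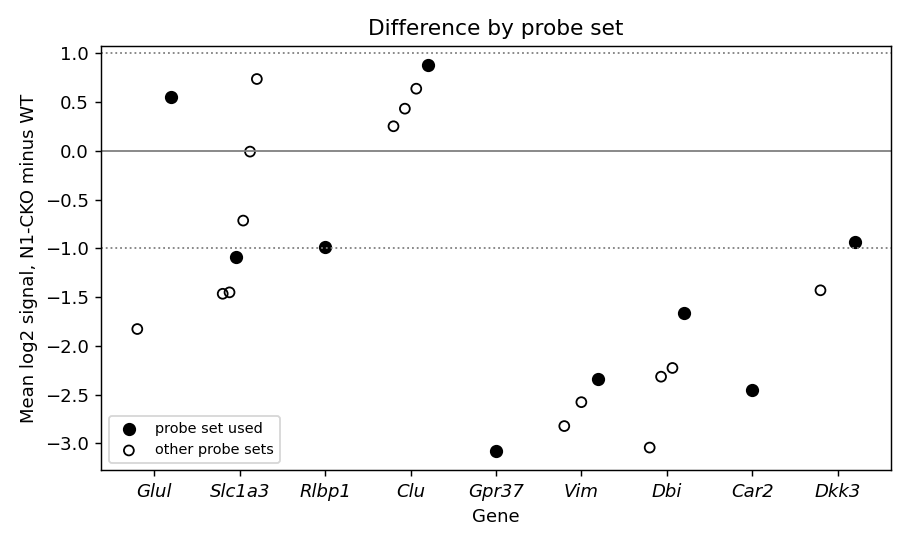
Difference in mean log2 MAS5 signal, N1-CKO minus WT (vertical axis), for each of the 24 probe sets of 9 genes; filled points are the probe sets used for gene values, and dotted lines mark 1 log2 unit. All probe sets of Vim and Dbi lie below -1, whereas Glul and Slc1a3 have probe sets on both sides of 0.

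To see which of these transcripts stay where few mitotic genes are detected, cells were described by how many of 27 measured mitotic genes were detected. Among these genes are the proliferation antigen gene Mki67 and the spindle gene Nusap1. N1-CKO cells had a median of 2 mitotic genes (0 to 13) and WT cells 14 (2 to 25). Fewer than 4 were detected in 9 N1-CKO cells (4 to 10, 12 and 13) and in 3 WT cells (7, 9 and 12), and no cell had exactly 4. The 4 remaining N1-CKO cells had 5 to 13 and the 10 remaining WT cells 10 to 25. The division follows values measured in the same cells, so what follows only describes them.

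With the probe sets used, Glul, Dbi and Vim were detected in most N1-CKO cells with few mitotic genes, and the other members in fewer of them. Which genes these are depended on the threshold: at the 85th percentile, with 6 N1-CKO cells then having few mitotic genes, Gpr37, Car2 and Dkk3 joined them for 6 members in all, and at the 95th percentile or a common threshold Vim was lost and 2 were left. In those 9 cells Dbi was detected in 8 (88.9%, interval 51.8 to 99.7), Glul in 7 (77.8%, interval 39.99 to 97.2) and Vim in 6 (66.7%, interval 29.9 to 92.5). These 3 of 8 genes were the ones detected in at least 5 of the 9 cells, against 20.2% of all genes. Other probe sets gave fewer cells. Of the 9 cells, the dimmer Glul probe set was detected in cell 7 alone. The Vim probe set ending in a plain _at was detected in cells 4, 7 and 8 of them. The Dbi probe set ending in a plain _at was detected in cells 4, 6, 7, 12 and 13. Dkk3 was detected in 3 of the 9, Car2, Rlbp1 and Gpr37 in 2 each, Slc1a3 in 1 and Clu in 0. The 3 WT cells with few mitotic genes gave another order. In them Gpr37, Car2, Vim and Dbi were detected in 2 each, Glul, Slc1a3, Rlbp1 and Dkk3 in 1 each and Clu in 0. In the 4 N1-CKO cells with mitotic genes, Glul, Dbi, Car2 and Dkk3 were detected in 4 of 4, Rlbp1 and Vim in 3, Slc1a3 in 2, and Gpr37 and Clu in 1 each. That made 7 of the 8 genes detected in at least 2 of these 4 cells, against 36.9% of all genes. In the 10 WT cells with mitotic genes, Vim and Dbi were detected in all 10, Glul and Car2 in 9, Rlbp1, Gpr37 and Dkk3 in 7 and Slc1a3 in 1, so that 7 of the 8 were detected in at least 5 of these cells, against 27.9% of all genes.

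The signals divided the genes differently for Vim. Its median was far lower in the 9 cells with few mitotic genes, as were those of Car2 and Dkk3, whose medians in the 4 were 6665 and 6106. Car2 ran from 3815 to 15181 in the 4 N1-CKO cells with mitotic genes, against 8.89 to 7455 (median 627) in the 9 with few. Dkk3 ran from 1483 to 10538 in the 4 cells and from 18.7 to 21771 (median 139) in the 9. For Glul the ranges were 3195 to 13118 in the 4 cells and 34.2 to 18169 (median 5828) in the 9, where only cells 9 and 10 were dim. Dbi ran from 9643 to 97297 in the 4 cells and from 232 to 26729 (median 8188) in the 9, with the transcript detected in 8 of them. Vim ran from 190 to 30376 (median 22473) in the 4 cells and from 2.77 to 28838 (median 1098) in the 9, where N1-CKO cells 9 and 10 passed the threshold at only 170% and 138% of it. N1-CKO cell 4, with 1 mitotic gene, was the cell with few that held the most members, 5 (Glul, Rlbp1, Vim, Dbi and Dkk3).

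**Figure D3:**
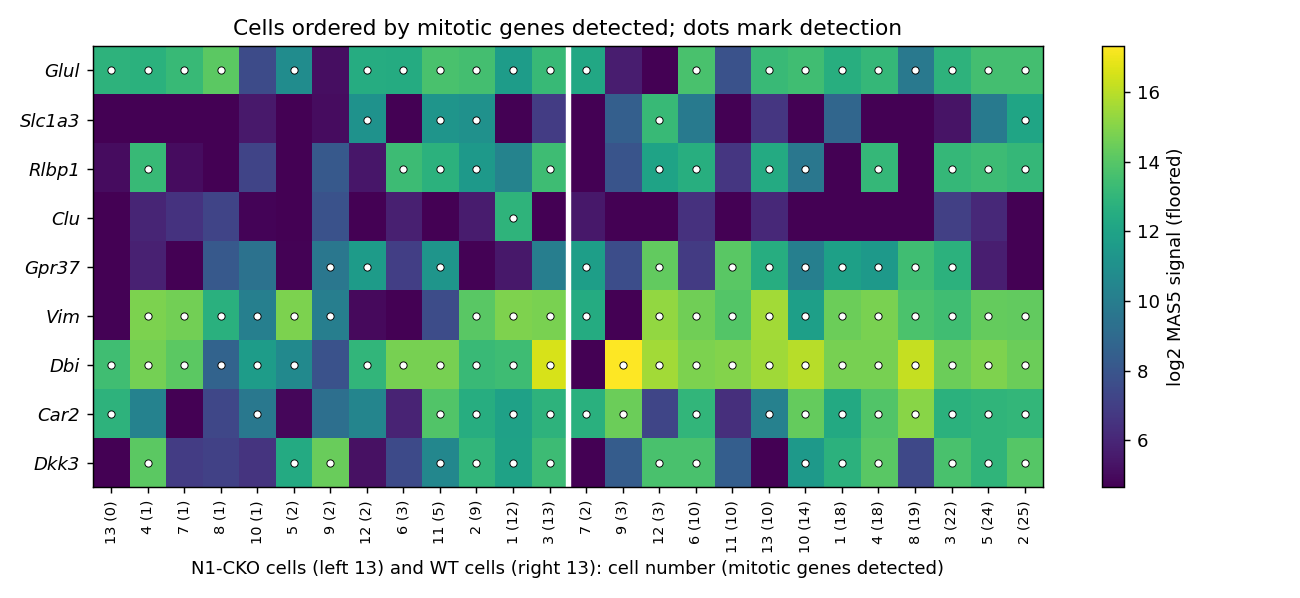
Log2 MAS5 signal (colour) of 9 genes (rows) in 13 N1-CKO cells (left) and 13 WT cells (right), each group ordered by the mitotic genes detected, given in parentheses after the cell number; white dots mark detection. Glul, Dbi and Vim carry dots along most of the N1-CKO block, whereas Car2, Dkk3 and Rlbp1 carry them mainly in its 4 rightmost cells.

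The groups were next set side by side within cells with mitotic genes and within cells with few. The 4 N1-CKO cells had 6.50 ± 0.58 of the 9 genes detected and the 10 WT cells 6.00 ± 1.25 (SD over cells). The median difference over the 8 genes was 0.53, with 3 lower, against 50.1% of all genes, and 5 higher, where the median over all genes was 0.00. Gpr37 kept a lower mean there, with 1 of 4 N1-CKO and 7 of 10 WT cells and a difference of -2.48, and Vim differed by -1.27. Those 2 of the 8 were lower by at least 1 log2 unit, against 27.7% of all genes. Higher by that much were Slc1a3 (1.34) and Rlbp1 (1.69), against 28.1% of all genes. With few mitotic genes, N1-CKO cells had 3.44 ± 0.73 genes detected in 9 cells, and the 3 WT cells had 4, 2 and 6. Between those cells the median difference over the 8 genes was -0.69, where that of all genes was 0.23, and 7 of the 8 had lower means, against 44.9% of all genes, with Glul higher by 3.74. That sign depended on how the cells were divided. Between the 9 N1-CKO and 2 WT cells without Mki67 the median was 1.13, where that of all genes was 0.46. WT cell 12, with 3 mitotic genes, had Mki67 and was not among those 2.

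**Figure D4:**
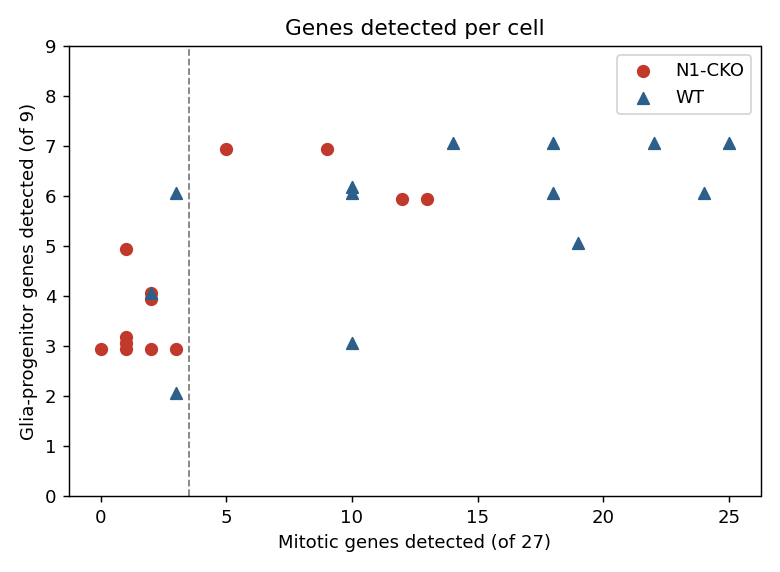
Number of the 9 progenitor and glial genes detected (vertical axis) against the number of 27 mitotic genes detected (horizontal axis) in each N1-CKO cell (red circles) and WT cell (blue triangles); points are moved slightly up or down from whole numbers so that coinciding ones show, and the dashed line lies between 3 and 4 mitotic genes. To the right of the line the 4 N1-CKO cells have 6 or 7 genes, and to the left 8 of 9 N1-CKO cells have 3 or 4.

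Other measures were set beside this division, and of these the detection threshold and the Gapdh ratio moved with it. The threshold ran from 245 to 2131 (median 825) in the 9 N1-CKO cells with few mitotic genes. In the 4 with mitotic genes it ran from 786 to 2164 (median 1824). The Gapdh ratio was 1.96 to 245 (median 3.43) in the 9 N1-CKO cells with few mitotic genes and 1.46 to 2.72 (median 2.09) in the 4 with mitotic genes, so that all 5 N1-CKO cells with a ratio above 3 were among the 9. The photoreceptor genes Otx2 and Crx were detected in 7 and 6 of the 9 cells and in 4 of the 4, and Neurod1 in all 13. The groups also differed in photoreceptor genes, in the direction opposite to most members. Of the 8 measured, 7 were detected in at least 2 cells, and 6 of these were higher by at least 1 log2 unit, against 19.1% of all genes, with a median difference of 2.22. Neurod1 was detected in 13 N1-CKO and 9 WT cells (2.67), Otx2 in 11 and 7 (2.62), Prdm1 in 10 and 4 (2.57) and Crx in 10 and 6 (2.22), and Rcvrn was detected in 0 cells. The 1 gene with a lower mean was Nrl (9 and 9 cells, -0.34), named here for that reason. The summed signal of the 8 ran from 7288 to 438254 (median 94764) in N1-CKO cells and from 669 to 304568 (median 17171) in WT cells. Photoreceptor genes were not alone in this direction. Of 7 amacrine and horizontal genes, 4 were detected in at least 2 cells, with a median difference of 0.96. Slc6a9 (1.88) and Prox1 (1.57), 2 of those 4, were higher by at least 1 log2 unit, against 19.1% of all genes. Of those 9 N1-CKO cells, 4 had a ratio no higher than 3, and in them the genes detected in at least 2 cells were again Glul, Vim and Dbi. The part of these measures in the differences above was not tested.

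The array sets gave different sizes. In the high 18S set, N1-CKO means were lower for 5 of the 8 genes, against 45.4% of all genes, and higher for 3; the median was -0.65 where that of all genes was 0.18. There Gpr37 (-2.19) and Dbi (-4.11) were lower by at least 1 log2 unit, 2 of 8 against 25% of all genes, and Glul (2.47) and Rlbp1 (1.08) were higher by that much, against 31.5%. In the low 18S set all 8 had lower means, against 54.2% of all genes, with a median of -2.06 where that of all genes was -0.15. There 6 of 8 were lower by at least 1 log2 unit, against 31.1% of all genes, and 0 were higher by that much, against 21.1%. Dbi differed by -0.13 and Glul by -0.64 there, whereas Vim differed by -3.29 and Car2 by -3.44. Of the 8 genes, Gpr37 was the only one lower by at least 1 log2 unit in both sets. For Dbi, the mean of the low set includes WT cell 7, which lacked it with a signal of 22.6. Median Dbi signals in that set were 10987.5 in N1-CKO and 26996 in WT cells. Limited to the 8 N1-CKO and 11 WT cells whose Gapdh ratio was no higher than 3, 7 of 8 genes were lower, against 49.8% of all genes. Of these, 5 were lower by at least 1 log2 unit, against 23.9% of all genes, and 0 of the 8 were higher by that much, against 23.1%, with Gpr37 at -2.32, Vim at -1.05 and Dbi at -2.86.

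The genes were not a single block from cell to cell. Rlbp1 and Dkk3 were detected together in 11 cells of the 17 with either, 4 N1-CKO and 7 WT, and had the highest rank correlation of the 28 pairs (Spearman rho 0.56 over 26 cells). Glul and Gpr37 had the lowest, -0.33, and were detected together in 9 of 24 cells. Glul and Dbi were detected together in 20 cells, and Car2 and Dbi in 16 with a rho of 0.46. Vim and Car2 correlated at -0.22. All these points share their arrays and their scaling, and both groups are pooled in them.

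Other genes were ranked by how closely they followed the mean of the 8 genes. These values cannot be set beside those of member pairs, since a mean of 8 genes varies less than 1 gene. Among 4682 genes detected in at least 6 cells, the highest rank correlations over the 26 cells were those of the mitotic kinase gene Cdk1 (rho 0.82), the metallothionein gene Mt1 (0.80), Crym (0.77), which encodes a thyroid hormone-binding protein, the mRNA decay factor gene Zfp36l1 (0.77), Mki67 (0.76), Arf6 (0.76), Dek (0.74) and Gas1 (0.73). All 8 of these had a mean difference below 0, N1-CKO minus WT, between -4.30 (Crym) and -1.36 (Arf6). This follows largely from how they were picked. Both groups were pooled, and the mean they were matched to was itself lower in N1-CKO (9.74) than in WT cells (11.24). For single members the closest gene was the cyclin gene Ccnd1 for Dbi (0.81), Fam120a for Dkk3 (0.77), Ddx21 for Slc1a3 (0.73), Arf6 for Rlbp1 (0.73) and the chromatin gene Hmgb2 for Car2 (0.73). It was Saraf for Vim (0.70), Commd8 for Gpr37 (0.68) and Ints13 for Glul (0.67). The highest of 4682 such values is large by selection and is given as a description only.

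Related genes outside the 10 give the setting. Of 17 measured progenitor genes, 17 were detected in at least 2 cells, 13 were lower by at least 1 log2 unit, against 22.3% of all genes. Only Six3, an eye-field homeobox gene named here after its value was seen, was higher by that much (8 N1-CKO and 6 WT cells, 1.17), against 19.1%, and the median was -1.77. Zfp36l1 was detected in 4 N1-CKO and 11 WT cells (-4.10), and the LIM homeobox gene Lhx2 in 5 and 12 (-3.88). The helix-loop-helix inhibitor genes Id3 (3 and 12 cells, -5.02) and Id1 (5 and 10 cells, -3.51) were lower too. Of 15 further Müller glia genes, 7 were detected in at least 2 cells, with 3 lower and 1 higher by at least 1 log2 unit, against the same shares of all genes, and a median of -0.81. They were Crym (5 and 12 cells, -4.30), the ferroxidase gene Cp (2 and 5 cells, -2.54), S100a16 (0 and 2 cells, -1.32) and, higher, the retinol dehydrogenase gene Rdh10 (7 and 5 cells, 1.21). Of the same 15 genes, 5 were detected in 0 of 26 cells, the water channel gene Aqp4, the potassium channel gene Kcnj10, Abca8a, Rgr and Timp3. Others were seen in few cells: Apoe in 2 N1-CKO cells, Aldoc in 1 N1-CKO cell, Ednrb in 1 N1-CKO and 1 WT cell, and Gfap and Car14 in 1 WT cell each. Gpm6b was detected in 10 N1-CKO and 12 WT cells. These genes outside the named-gene rule are given so that all 15 are accounted for.

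By single markers, the 11 N1-CKO and 7 WT cells with Otx2 had 4.55 ± 1.69 and 5.29 ± 1.98 of the 9 genes detected (SD over cells), with Gpr37 in 2 of 11 N1-CKO and 5 of 7 WT cells and Dbi in 10 of 11 and 7 of 7. The 4 N1-CKO cells with Mki67 were the same 4 that had mitotic genes, and among the 11 WT cells with Mki67 there were 6.00 ± 1.18 genes detected. In WT cells with Hes1 Rlbp1 was detected in 5 of 6 and Gpr37 in 2 of 6, and in WT cells without Hes1 Rlbp1 was detected in 3 of 7 and Gpr37 in 7 of 7. In the same order, Dkk3 was detected in 5 and 3 cells, Vim in 5 and 7 and Car2 in 6 and 5. Glul was detected in 5 and 5, Dbi in 6 and 6, Slc1a3 in 1 and 1 and Clu in 0 and 0. WT cells 2 to 6, with Hes1, were in the low 18S set, and WT cells 8, 10, 11 and 12, without it, in the high set. The part of the array set in these counts was not tested.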

How the data were processed

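Per the labels' protocols, the cDNA of each cell was primed with oligo dT and amplified by PCR, which favours 3' ends. The authors deposited linear array intensity computed with MAS5, a tool named in the submitters' processing notes; its version is not given in the labels. Since every array has the same trimmed mean, total RNA per cell cannot be read, and the number of arrays limits precision. GEO's platform annotation gave 1 gene for 34945 probe sets; names were updated through RefSeq (GRCm38.p6). Of several probe sets for a gene, that with the highest mean log2 signal was used. Python 3.11.15 with pandas 2.3.3 and scipy 1.17.1 computed means, SDs, exact Clopper-Pearson intervals (counting error only) and rank correlations; the script for differences was tested on simulated data. Named genes are the 10 members, their nearest genes by rank correlation and up to 4 genes of each marker list with the largest differences. The members, lists and limits were chosen with earlier results of these data known. Alternatives changed the floor, scaling, probe set, detection threshold, cells used and the limit on mitotic genes.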

Additional observations from a re-analysis of the deposited data

How the results depend on the processing

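The median difference over the 8 genes stayed below 0 in the 10 alternatives, from -2.14 with medians over cells to -0.65 in the high 18S set, and from -1.93 to -1.13 with 1 cell left out. The count of genes lower by at least 1 log2 unit, 5, was 2 in the high 18S set and ranged from 2 to 7 over the alternatives, and from 4 to 7 with 1 cell left out. The difference in genes detected per cell, -1.15, ranged from -1.75 in the low 18S set to -0.20 in the high 18S set, and from -1.45 to -1.03 with 1 cell left out. Detection at the 85th percentile left 6 N1-CKO cells with few mitotic genes, and 6 members (Glul, Gpr37, Vim, Dbi, Car2 and Dkk3) were then detected in at least 3 of those 6 cells, where the count was 3 members at the 90th percentile. At the 95th percentile and at a common threshold the members were 2, Glul and Dbi, and in the high 18S set 2, Vim and Dbi. That count stayed at 3 with limits of fewer than 2 or fewer than 8 mitotic genes and without probe sets named _x_at or _s_at. Leaving out those probe sets does not change the one used for Glul. The count was also 3 when any 1 of the N1-CKO cells with few mitotic genes was left out. Leaving out any other cell could not change it, since only those N1-CKO cells enter it. Quantile normalization could not change it either, since it keeps the order of signals within an array. Glul changed sign in 3 of 9 alternatives (-0.64 to 2.47), and Rlbp1 and Dkk3 were higher in N1-CKO cells in the high 18S set (1.08 and 0.53). Gpr37 stayed between -4.76 and -2.19. No paired analysis was possible because cell numbers only name the cells and no test was made between the groups.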
